A study of Mus musculus with 12 samples.

Results

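Follicular B cells of IkL/L mice, which carry alleles of Ikzf1 that lower the transcription factor Ikaros, were examined after 12 h of B cell receptor cross-linking. The comparison used the arrays of IkL/L cells after 12 h with anti-IgM and those of IkL/L cells kept without stimulus. These are 4 of the 12 arrays of the study, with 2 arrays in each group. The study profiled spleen follicular B cells of IkL/L and wild-type (WT) C57Bl/6 mice, 6 weeks old, without stimulus and after 3 h and 12 h of stimulation, in 2 independent experiments. The groups used here were IkL/L cells after 12 h and after 3 h with goat F(ab')2 fragments against mouse IgM at 10 µg/ml, unstimulated IkL/L cells, WT cells after 12 h with the same agent and unstimulated WT cells. All cells were sorted as B220+ CD23hi CD21lo to above 98% purity, so every group had passed the same gate. Unstimulated cells were cultured for 3 h, so that culture time differs between the 12 h and the unstimulated groups and cannot be told apart from stimulation. Of the 45037 probe sets on the Affymetrix 3' array, those with a single gene symbol were reduced to 1 per gene, the brightest over all 12 arrays, which left 18193 genes. The deposited values are log2 signals after robust multi-array averaging, and each was made from 100 ng of RNA by 2-cycle labelling.

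The B cell receptor is a membrane immunoglobulin paired with the signalling chains Ig-alpha and Ig-beta, and its cross-linking engages the kinases Lyn, Syk and Btk, calcium release, Ras and NF-kB. Signalling of this kind takes a resting follicular B cell out of quiescence: the cell grows, raises its synthesis of protein and lipid and prepares to copy its DNA. Ikaros is a zinc finger factor that binds DNA together with its relative Aiolos and with the chromatin remodelling complex NuRD, and it is known to restrain the activation of mature B cells. The L allele lowers Ikaros rather than removing it, so IkL/L cells are a model of reduced and not of absent Ikaros.

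Array medians lay between 3.12 and 3.21 log2 units, and 56.5% to 58.5% of the genes on each array lay under 4.21, a floor set at the highest array median plus 1. A level under that floor is read here as not above background, and a fold against it is given as a lower bound. A log2 difference is the fitted one throughout, so where a level lies under the floor it is no measured size. The 2 arrays of a group correlated at 0.990 to 0.994 over all genes, and 145 genes differed by more than 1 log2 unit between the 12 h arrays, against 169 between the unstimulated arrays. The transcript Xist, chosen after its values were seen, lay at 3.19 to 3.48 on all 6 IkL/L arrays, but at 10.0 to 10.7 on the 3 WT arrays of replicate 1 and at 3.22 to 3.47 on those of replicate 2. Eif2s3y and Kdm5d, of the Y chromosome, lay at 2.41 to 2.83 and 1.97 to 2.74 on the WT arrays of replicate 1. They lay at 8.52 to 9.24 and 4.99 to 5.39 on the IkL/L arrays. On the WT arrays of replicate 2 they lay at 8.30 to 8.60 and 5.01 to 5.59. By these transcripts WT replicate 1 reads as female and every other array as male. Sex thus touches the comparison with WT and not the fitted differences within IkL/L. The standard errors and adjusted p-values within IkL/L draw on the spread of all 12 arrays, so the gap between the WT replicates enters them. Ikzf1 itself gave 9.59 and 8.98 at 12 h and 10.00 and 9.94 without stimulus in IkL/L cells, against 10.33 and 10.00 at 12 h and 9.85 and 9.83 without stimulus in WT cells. The labels do not place the L allele relative to the probes, so these signals do not check the genotype. Within IkL/L cells the 12 h arrays were both below the unstimulated ones for Ikzf1, a difference of -0.69 that did not pass limma's test (adjusted p = 0.0559) and passed it with the replicate number as a block (adjusted p = 0.011). Of the markers of other cells, 0 of 11 T cell genes and 0 of 7 NK cell genes changed, with 10 and 7 of them under the floor in both groups, and the T cell receptor chain Cd3e and the NK receptor Ncr1 were among those. Among 10 macrophage and monocyte genes, 8 lay under the floor in both groups, Csf1r and Lyz2 included, and 2 were higher, among them Adgre1, at 5.16 and 5.94 at 12 h, against 3.69 and 3.61 without stimulus. The summed level of that list was 7.29 and 7.49 at 12 h against 6.69 and 6.75 without stimulus on the log2 scale. Neutrophil genes summed to 6.88 and 8.09 at 12 h and 7.28 and 9.06 without stimulus, and the plasma cell gene Jchain read 4.28 and 6.90 at 12 h and 5.64 and 8.68 without stimulus. Replicate 2 was the higher one in both groups for each, and both Jchain pairs were lower at 12 h, a difference of -1.57 (adjusted p = 0.49, and 0.0121 with the replicate block). Among the 9 neutrophil genes 0 changed, and with the replicate block Ngp alone did, at -0.90 (adjusted p = 0.000375). Jchain does not stand for the plasma cell list, in which 1 of 7 genes was higher and 0 lower. The higher one was Xbp1 (log2 0.90, limma adjusted p = 0.00238), a call that did not hold in every setting. That list summed to 11.80 and 11.76 at 12 h, against 11.43 and 11.89 without stimulus. The part of such cells in the results was not tested. In a bulk sample, fewer cells that express a gene and less of its RNA per cell cannot be told apart.

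After 12 h with anti-IgM, IkL/L follicular B cells had 1769 genes higher and 1432 lower than IkL/L cells without stimulus. These are 9.72% and 7.87% of the 18193 genes tested, by limma with Benjamini-Hochberg adjustment at 0.05, and together 17.6%. The share of higher genes among those called was 55.3%; when the arrays were scaled to 8 housekeeping genes, of which Hprt and Pgk1 were themselves called higher, which shifted the median of all genes by -0.21, 979 were higher and 2037 lower, a share of 32.5%. Without unstimulated replicate 1 the count of higher genes was 1129, and without 12 h replicate 2 it was 991, with 914 lower. With IkL/L replicate 1 or replicate 2 left out at all 3 times, 844 and 797 genes were higher and 865 and 584 lower. A difference of at least 2-fold was reached by 689 of the higher and 735 of the lower genes, and 4-fold by 83 and 160. The median difference over all genes was 0.02, and the median standard error of a difference was 0.15. Nothing in the labels says that the 2 arrays of a group came from separate mice. The sex-linked transcripts set the 2 WT replicates apart as cells of different sex, but do not tell the IkL/L replicates apart. The p-values therefore stand only for the spread among these arrays, which may in part be technical.

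Nrp1, Pdcd1 and 10 other genes had the largest fitted rises among genes whose groups do not overlap. Nrp1, the coreceptor neuropilin-1, read 8.0 and 8.47 at 12 h, against 2.82 and 3.99 without stimulus, which is at least 16.3-fold higher (log2 4.83, adjusted p = 0.000106). Pdcd1, which encodes the inhibitory receptor PD-1, read 7.78 and 8.03 at 12 h, against 3.22 and 3.73 without stimulus, and was at least 13-fold higher (log2 4.42, adjusted p = 5.16e-06). In both, the unstimulated arrays lay under the floor and the 12 h arrays well above it. Axl, a receptor tyrosine kinase, was at least 7.59-fold higher (log2 4.02, adjusted p = 1.23e-06), and Cst7, an inhibitor of lysosomal cysteine proteases, was at least 8.18-fold higher (log2 4.25, adjusted p = 6.65e-05). Tacc2, a centrosomal coiled-coil protein, read 8.19 and 8.11 at 12 h, against 3.39 and 3.81 without stimulus. Acot7, a thioesterase of acyl-CoA, read 7.38 and 8.18 at 12 h, against 3.55 and 4.18 without stimulus. Of the enzymes and carriers of amino acids, Cth, which makes cysteine, read 6.96 and 8.82 at 12 h, against 3.14 and 3.73 without stimulus, and was at least 12.8-fold higher (log2 4.45, adjusted p = 0.000379). Bcat1, which transaminates branched-chain amino acids, was 15.9-fold higher (log2 3.99, adjusted p = 2.55e-05), and Slc7a3, a carrier of cationic amino acids, was 9.77-fold higher (log2 3.29, adjusted p = 0.00089). The sterol enzyme Cyp51, the thioredoxin reductase Txnrd1 and the lipid scramblase Plscr1 completed the 12, at 15.4-fold higher, 9.78-fold higher and 10.1-fold higher. The rank is that of fitted differences and not of measured sizes, since the unstimulated level of some of the 12 lay under the floor: the bound for Axl lies below the fold of Lss, 7.85-fold higher, which is not among them. In each of these 12 the lower of the 12 h arrays lay above the higher of the unstimulated arrays, a separation that 50.4% of all genes showed in 1 direction or the other.

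Abca1, Neurl3 and Rasa3 led the genes that fell, ranked in the same way. Abca1, which exports cholesterol from the cell, read 5.07 and 4.46 at 12 h, against 10.53 and 10.33 without stimulus, which is 50.9-fold lower (log2 -5.67, adjusted p = 1.23e-06). Neurl3, an E3 ubiquitin ligase, read 3.39 and 3.13 at 12 h, against 9.27 and 8.64 without stimulus, with both 12 h arrays under the floor, and was at least 26.8-fold lower (log2 -5.69, adjusted p = 1.23e-06). Rasa3, a GTPase-activating protein that switches off Ras and Rap, read 6.02 and 5.81 at 12 h, against 10.57 and 10.63 without stimulus, and was 25.8-fold lower (log2 -4.69, adjusted p = 2.97e-06). All 3 kept the 12 h arrays more than 4 log2 units below the unstimulated ones. Ltb, which encodes the lymphotoxin beta chain, was 22.9-fold lower (log2 -4.52, adjusted p = 5.16e-06). Abcg1, a further sterol exporter, was at least 19-fold lower (log2 -4.40, adjusted p = 4.33e-05), and Itgb3, the integrin beta-3 chain, was at least 11.6-fold lower (log2 -4.28, adjusted p = 1.42e-05). The adhesion receptor Cd2 was at least 12.9-fold lower, and Mylip, a ubiquitin ligase that removes the LDL receptor, was 15.7-fold lower. Kbtbd11, the ceramide kinase Cerk, the mitochondrial acetate-activating enzyme Acss1 and the linker histone H1f2 were 17.2-fold lower, 15-fold lower, 13.8-fold lower and 13.3-fold lower. Some of these sizes depend on the setting. The smallest log2 difference over 15 other settings was -2.27 for Abca1, -1.06 for Kbtbd11, -1.34 for Acss1 and 2.02 for Axl. For Neurl3 and Pdcd1 it was -5.38 and 4.17. The 24 named here kept their call in all 15 other settings tried.

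**Figure D1:**
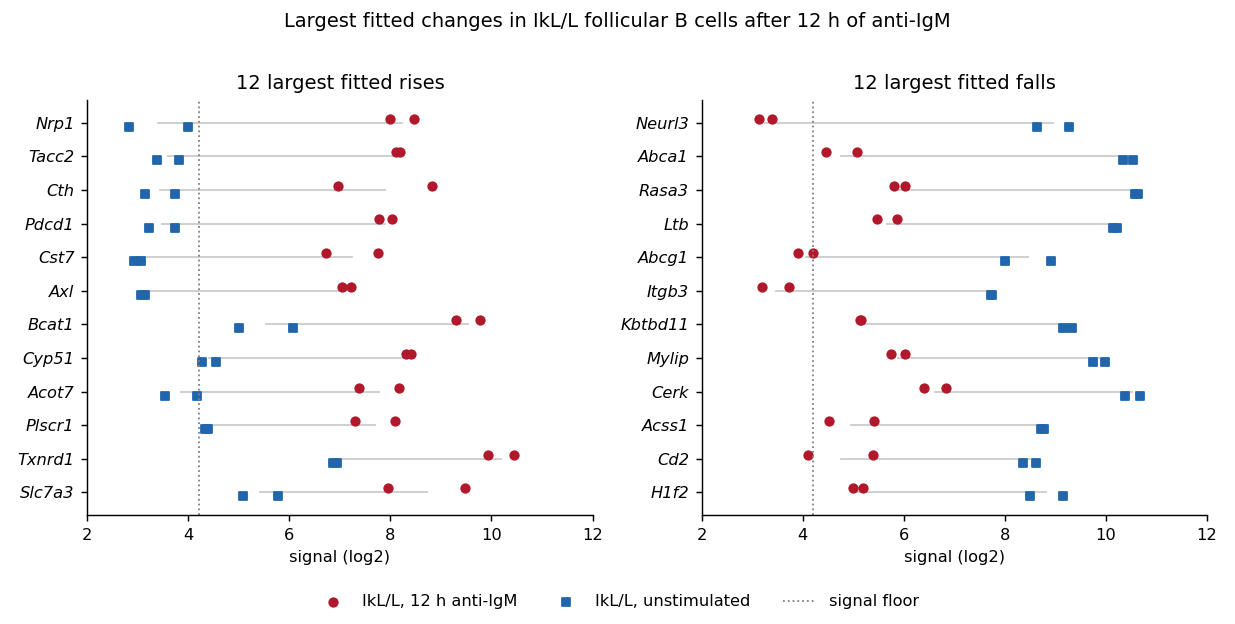
Log2 signal on each array for the 12 largest fitted rises and the 12 largest fitted falls, with IkL/L cells at 12 h as red circles and unstimulated IkL/L cells as blue squares; the dotted line is the floor of 4.21. The 2 groups do not overlap in any of the 24 genes, and Abca1 lies at 5.07 and 4.46 at 12 h, against 10.53 and 10.33 without stimulus.

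Grouped by function, lists for growth and biosynthesis had more higher than lower genes, and lists for quiescence, antigen presentation, homing and B cell identity had more lower than higher ones. All lists were drawn up with earlier results of these data known, so their counts are a description and not a test. Cholesterol synthesis had 15 of 17 measured genes higher and proteasome subunits 18 of 20 (6 of 20 without IkL/L replicate 2 at all times), where 9.72% of all genes were higher. Quiescence and FOXO-linked genes had 16 of 21 lower and MHC class II genes 9 of 15, where 7.87% of all genes were lower. The list of mitotic genes had 1 of 22 higher and 1 lower, with 14 of them under the floor in both groups. Type I interferon genes had 1 of 17 higher (4 with the replicate block) and 0 lower. Of the 29 list counts of 1 to 3 genes in a direction, 24 moved by over 1.5 times when some array or replicate was left out, so these small counts describe the full set of arrays alone.

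**Figure D2:**
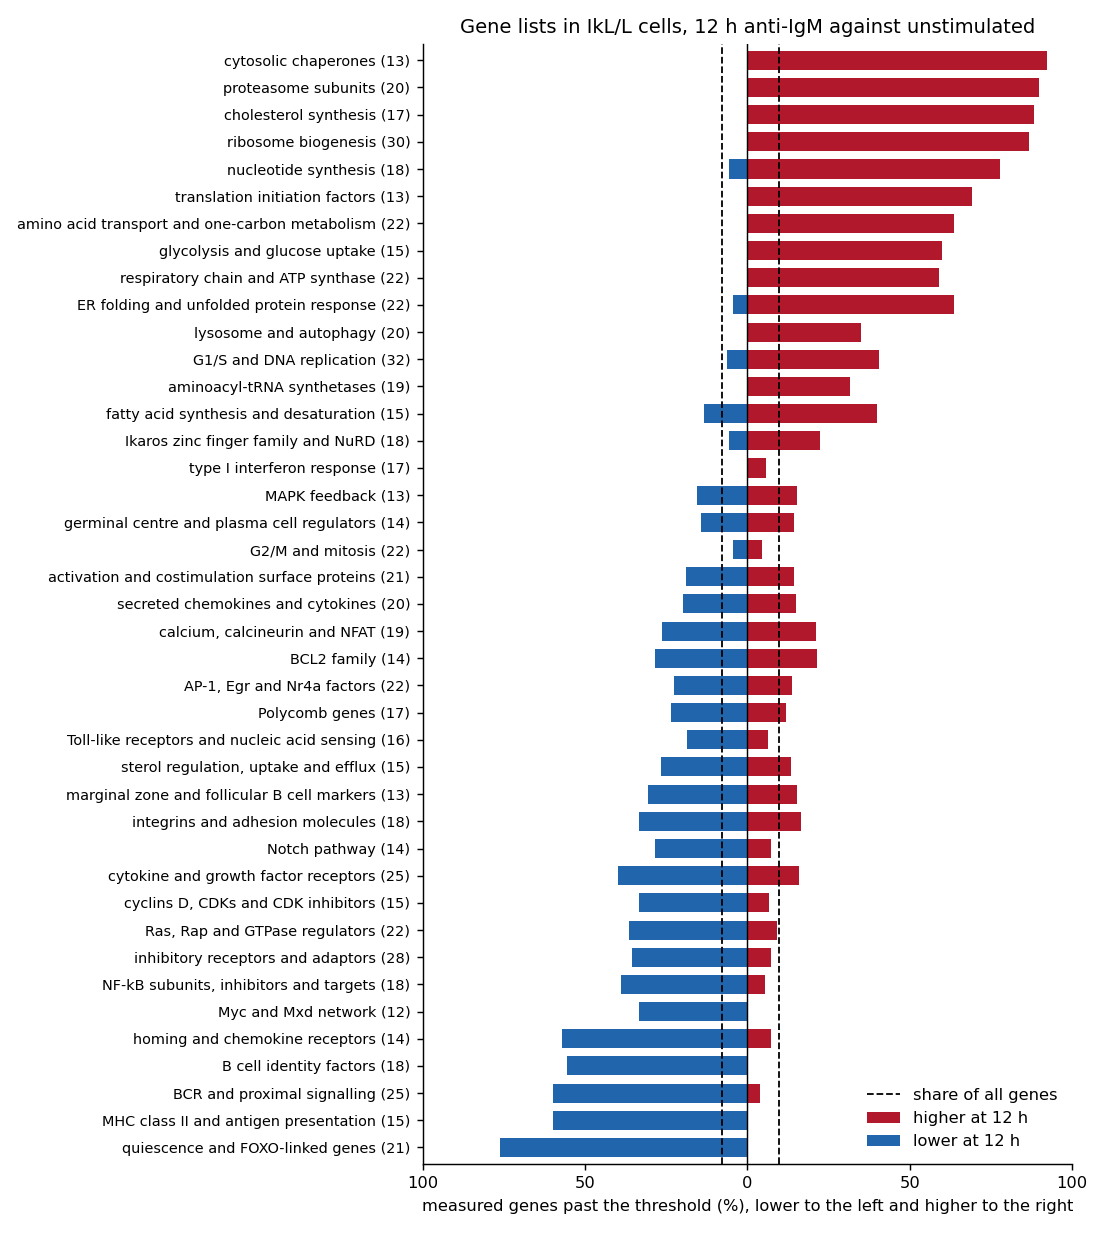
Share of the measured genes of each list that were higher (bars to the right) or lower (bars to the left) in IkL/L cells at 12 h than in unstimulated IkL/L cells, by limma at an adjusted p of 0.05. Dashed lines mark the 9.72% and 7.87% of all genes that were higher and lower; cytosolic chaperones (12 of 13) and proteasome subunits (18 of 20) reach far to the right and quiescence genes (16 of 21) far to the left.

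Enzymes of cholesterol synthesis were higher almost throughout the pathway, while exporters of sterols were lower. Cells make cholesterol from acetyl-CoA through mevalonate and squalene under control of SREBP2, and oxysterol-activated LXR factors raise its export. Of 17 enzymes measured, 15 were higher and 0 lower, with a median difference of 1.90 against 0.02 over all genes; across the settings tried 12 to 16 were higher. Hmgcs1, which makes HMG-CoA early in the pathway, read 10.90 and 10.94 at 12 h, against 9.33 and 9.52 without stimulus, and was 2.81-fold higher (log2 1.49, adjusted p = 7.14e-05). Idi1, the isopentenyl diphosphate isomerase, read 9.81 and 9.63 at 12 h, against 6.61 and 6.98 without stimulus, and was 7.59-fold higher (log2 2.92, adjusted p = 4.47e-05). Sqle, the rate-limiting squalene epoxidase, read 9.11 and 9.27 at 12 h, against 6.33 and 6.32 without stimulus, and was 7.28-fold higher (log2 2.86, adjusted p = 5.00e-06). In each of these the arrays of the 2 groups were at least 1 log2 unit apart. Lss, which closes the sterol rings, read 7.78 and 7.59 at 12 h, against 4.31 and 5.12 without stimulus, and was 7.85-fold higher (log2 2.97, adjusted p = 2.58e-05). Cyp51, which demethylates lanosterol, read 8.40 and 8.31 at 12 h, against 4.26 and 4.56 without stimulus, and was 15.4-fold higher (log2 3.95, adjusted p = 1.49e-06). In the list for sterol regulation, uptake and efflux, 2 of 15 genes were higher (5 with the replicate block) and 4 lower, the 4 lower ones being Abca1, Abcg1, Mylip and Apoe. Apoe, a lipid carrier that accepts exported cholesterol, read 7.62 and 7.04 at 12 h, against 9.65 and 10.02 without stimulus, and was 5.69-fold lower (log2 -2.51, adjusted p = 0.000238). Srebf2, which encodes SREBP2, differed by 0.87 with an adjusted p of 0.0409. Its call ended, among other settings, when unstimulated replicate 1 or 2 was dropped (adjusted p = 0.129 and 0.13), when 12 h replicate 1 was (0.283), when IkL/L replicate 1 or 2 was at all times (0.45 and 0.0901) and with housekeeping scaling (0.121). Srebf1 differed by -0.21 and did not pass (adjusted p = 0.522).

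**Figure D3:**
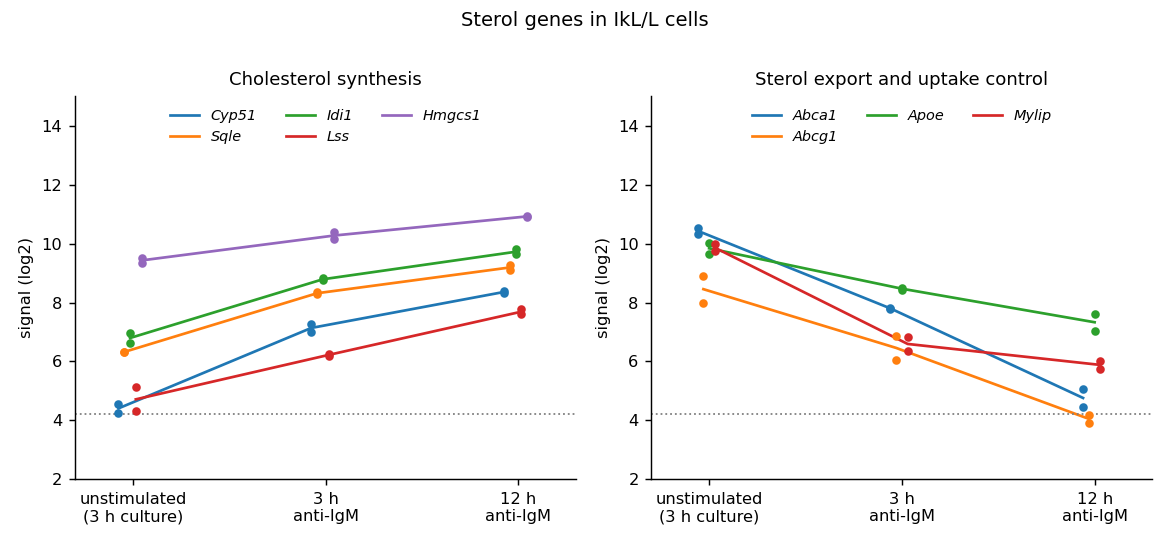
Log2 signal of 5 cholesterol synthesis enzymes (left) and of 4 sterol efflux and uptake genes (right) in IkL/L cells without stimulus, at 3 h and at 12 h of anti-IgM; points are arrays and lines join group means. The enzymes sit highest at 12 h, and Abca1 lies at 5.07 and 4.46 at 12 h against 10.53 and 10.33 without stimulus.

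Promoters of 4 of these enzymes are shown because the list moved together. They are RefSeq sequences of build GRCm38.p6, 250 bases before to 50 after the start, and capitals mark the NF-Y box CCAAT on either strand and, in Hmgcs1, also the sterol element core CACCCCAC. The windows lie at chr5:4104648-4104947, minus strand for Cyp51, chr13:8885356-8885655, plus strand for Idi1, chr10:76531355-76531654, plus strand for Lss and chr13:119690101-119690400, plus strand for Hmgcs1.
Cyp51: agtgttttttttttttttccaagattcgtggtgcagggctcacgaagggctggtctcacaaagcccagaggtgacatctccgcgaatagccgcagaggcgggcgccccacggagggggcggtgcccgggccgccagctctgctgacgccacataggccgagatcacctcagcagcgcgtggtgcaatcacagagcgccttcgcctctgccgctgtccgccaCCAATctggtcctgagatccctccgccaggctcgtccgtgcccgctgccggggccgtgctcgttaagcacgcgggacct
Idi1: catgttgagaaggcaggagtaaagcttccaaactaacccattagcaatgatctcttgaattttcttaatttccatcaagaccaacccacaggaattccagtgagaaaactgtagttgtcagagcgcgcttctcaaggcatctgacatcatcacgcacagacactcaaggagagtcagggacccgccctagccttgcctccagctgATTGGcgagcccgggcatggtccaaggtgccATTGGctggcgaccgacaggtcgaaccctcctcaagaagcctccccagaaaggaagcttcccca
Lss: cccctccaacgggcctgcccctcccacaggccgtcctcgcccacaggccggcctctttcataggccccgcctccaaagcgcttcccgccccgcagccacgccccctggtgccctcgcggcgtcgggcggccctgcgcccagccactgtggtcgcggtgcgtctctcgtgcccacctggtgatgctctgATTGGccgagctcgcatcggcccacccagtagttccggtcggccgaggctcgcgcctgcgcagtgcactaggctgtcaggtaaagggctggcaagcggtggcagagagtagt
Hmgcs1: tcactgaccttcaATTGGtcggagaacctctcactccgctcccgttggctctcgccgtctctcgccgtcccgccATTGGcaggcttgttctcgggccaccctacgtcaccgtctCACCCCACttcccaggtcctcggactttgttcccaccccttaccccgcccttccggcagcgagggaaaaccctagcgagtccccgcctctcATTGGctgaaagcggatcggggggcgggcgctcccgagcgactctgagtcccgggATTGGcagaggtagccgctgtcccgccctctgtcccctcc
Of the 14 cholesterol synthesis genes with a listed promoter, all 14 held CCAAT, against 42.0% of the 14452 measured genes with one, while CACCCCAC stood in 1 of 14, against 3.76%. CCAAT is not particular to this list. It stood in 9 of 11 promoters of MHC class II genes, a list that had lower genes and no higher ones. It also stood in 63.6% of sterol regulation, 57.7% of G1/S and 24% of ribosome biogenesis promoters. A match is a description of these letters and not of a bound site.

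Genes of glycolysis and of amino acid and nucleotide synthesis were higher more often than lower at 12 h. Of 15 glycolysis and glucose uptake genes, 9 were higher and 0 lower, with a median of 1.10. Pkm, the last enzyme of glycolysis, read 9.98 and 10.01 at 12 h, against 8.14 and 8.27 without stimulus, and was 3.46-fold higher (log2 1.79, adjusted p = 0.00019). Hk2, the inducible hexokinase, read 8.63 and 8.92 at 12 h, against 6.84 and 7.31 without stimulus, and was 3.25-fold higher (log2 1.70, adjusted p = 0.000861), and the platelet-type phosphofructokinase Pfkp was 3.03-fold higher (log2 1.60, adjusted p = 7.53e-05). Slc2a1, the glucose carrier GLUT1, read 7.11 and 7.18 at 12 h and 7.32 and 7.17 without stimulus, with groups that overlap (adjusted p = 0.847). Amino acid transport and serine, glycine and folate metabolism had 14 of 22 genes higher and 0 lower, a count of 7 without unstimulated replicate 1 or without 12 h replicate 2, 9 without IkL/L replicate 2 at all times and 7 with housekeeping scaling. Asns, which makes asparagine, was 4.9-fold higher (log2 2.29, adjusted p = 5.48e-05), and Psph, which completes serine synthesis, was 3.98-fold higher (log2 1.99, adjusted p = 7.29e-05). Of 18 nucleotide synthesis genes 14 were higher and 1 lower; 9 were higher with housekeeping scaling, with unstimulated replicate 1 or 12 h replicate 2 dropped and with IkL/L replicate 2 dropped at all times, and 7 with IkL/L replicate 1 dropped at all times. Cad, which starts pyrimidine synthesis, read 7.75 and 8.22 at 12 h, against 5.47 and 6.70 without stimulus, and was 3.73-fold higher (log2 1.90, adjusted p = 0.00413). Pfas, of purine synthesis, and the nucleoside diphosphate kinase Nme1 were 2.83-fold higher (log2 1.5, adjusted p = 0.000369) and 2.69-fold higher (log2 1.43, adjusted p = 9.61e-05). Among 15 genes of fatty acid synthesis and desaturation, 6 were higher and 2 lower (4 lower with the replicate block), with 3 higher when IkL/L replicate 1 or replicate 2 was left out at all times. Hacd1, a dehydratase of fatty acid elongation, was at least 1.79-fold higher (log2 2.26, adjusted p = 0.0012).

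Genes for assembling ribosomes and for starting translation were higher more often than lower. Ribosome biogenesis had 26 of 30 genes higher and 0 lower, with a median of 0.95. That count was 16 with unstimulated replicate 1 dropped, 14 with 12 h replicate 2 dropped, 11 and 17 with IkL/L replicates 1 and 2 dropped at all times, and 15 with housekeeping scaling. Nop16, a nucleolar protein of the large subunit's assembly, read 8.39 and 8.43 at 12 h, against 6.15 and 6.59 without stimulus, and was 4.11-fold higher (log2 2.04, adjusted p = 9.61e-05). Wdr12, of the PeBoW complex, was 2.93-fold higher (log2 1.55, adjusted p = 6.89e-05), and the pseudouridine synthase Dkc1 was 2.6-fold higher (log2 1.38, adjusted p = 0.000474). The E-box CACGTG stood in 5 of 25 listed promoters of this group, against 10.2% of all. It is not particular to this list. The share was 21.4% in cholesterol synthesis, 27.3% in sterol regulation, 9.09% in MHC class II and 7.69% in G1/S promoters. Among all genes higher and lower at 12 h it was 15.4% and 12.1%. Of 19 aminoacyl-tRNA synthetases 6 were higher and 0 lower (3 without IkL/L replicate 1 or 2 at all times and with housekeeping scaling), among them Farsb at 1.9-fold higher (log2 0.93, adjusted p = 0.000619) and Rars at 1.88-fold higher (log2 0.91, adjusted p = 0.00124). Initiation factors had 9 of 13 higher; 4 were with unstimulated replicate 1 or 12 h replicate 2 dropped or with housekeeping scaling, and 2 and 3 without IkL/L replicates 1 and 2 at all times. Eif6, which keeps ribosomal subunits apart, was 1.74-fold higher (log2 0.80, adjusted p = 0.00222).

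Cytosolic chaperones had 12 of 13 genes higher and proteins of ER folding 14 of 22, with 1 of the ER genes lower (2 with the replicate block). Without IkL/L replicates 1 and 2 at all times, 5 and 5 chaperones and 4 and 7 ER genes were higher, and 9 ER genes with housekeeping scaling. The mitochondrial chaperonin Hspd1 read 11.66 and 12.00 at 12 h, against 10.08 and 10.39 without stimulus, and was 3.02-fold higher (log2 1.60, adjusted p = 0.000125). Hsp90aa1 and Hsph1 were 2.67-fold higher (log2 1.42, adjusted p = 0.000604) and 2.79-fold higher (log2 1.48, adjusted p = 0.00486). In the ER, the stress-induced chaperone component Sdf2l1 read 6.59 and 5.75 at 12 h, against 4.02 and 3.78 without stimulus, and was at least 3.89-fold higher (log2 2.27, adjusted p = 0.0011), and the disulfide isomerase Pdia3 was 2.52-fold higher (log2 1.33, adjusted p = 0.00463). Ddit3, which encodes CHOP, a factor of ER stress, read 7.68 and 7.96 at 12 h and 8.02 and 8.30 without stimulus (adjusted p = 0.38). Proteasome subunits had 18 of 20 genes higher and 0 lower, with a median of 0.87, and 6 were higher without IkL/L replicate 2 at all times. Psmd1, of the regulatory particle, read 10.42 and 10.61 at 12 h, against 9.12 and 9.31 without stimulus, and was 2.46-fold higher (log2 1.3, adjusted p = 0.000146), the catalytic Psmb5 was 1.8-fold higher (log2 0.85, adjusted p = 0.000507), and the activator Psme3 was 2.61-fold higher (log2 1.38, adjusted p = 0.000285). The respiratory chain and ATP synthase had 13 of 22 genes higher and 0 lower. That count was 8 without unstimulated replicate 1 or 2 and with IkL/L replicate 1 dropped at all times, 6 with 12 h replicate 2 dropped, and 5 with housekeeping scaling or IkL/L replicate 2 dropped at all times. Atp5g1, of the ATP synthase ring, read 9.31 and 9.70 at 12 h, against 7.69 and 7.88 without stimulus, and was 3.28-fold higher (log2 1.71, adjusted p = 6.56e-05), and the complex IV subunit Ndufa4 was 2.09-fold higher (log2 1.06, adjusted p = 0.000537). Lysosome and autophagy genes had 7 of 20 higher and 0 lower, with the autophagy protein Gabarapl1 at 4.41-fold higher (log2 2.14, adjusted p = 0.00089) and the lysosomal beta-glucuronidase Gusb at 3.27-fold higher (log2 1.71, adjusted p = 0.000104).

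Most genes of the quiescence list were lower, and part of the S phase entry genes were higher. Klf2, a factor that keeps lymphocytes resting, read 5.79 and 6.44 at 12 h, against 9.0 and 8.80 without stimulus, and was 6.87-fold lower (log2 -2.78, adjusted p = 4.62e-05). Cdkn1b, the CDK inhibitor p27, read 4.48 and 4.71 at 12 h, against 6.93 and 6.07 without stimulus, and was 3.74-fold lower (log2 -1.90, adjusted p = 0.000736). Pik3ip1, an inhibitor of PI3-kinase, read 4.8 and 4.25 at 12 h, against 8.05 and 8.08 without stimulus, and was 11.6-fold lower (log2 -3.54, adjusted p = 5.00e-06). Each of these 3 was lower on both 12 h arrays, as was Foxo1, the factor that PI3-kinase signalling switches off, at 2.68-fold lower (log2 -1.42, adjusted p = 0.000565). S1pr1, the receptor for lymphocyte exit, was at least 5.21-fold lower (log2 -2.45, adjusted p = 2.58e-05). The quiescence list had 16 of 21 genes lower and 0 higher, with a median of -1.80. Like the other lists, it had been drawn up with earlier results of these data known. Of 15 D cyclins, CDKs and CDK inhibitors, 5 were lower (3 without IkL/L replicate 1 or 2 at all times) and 1 higher (2 with the replicate block). Cdk4, the kinase partner of the D cyclins, read 10.14 and 10.08 at 12 h, against 8.97 and 8.98 without stimulus, and was 2.2-fold higher (log2 1.14, adjusted p = 0.000476). Cyclin D3, Ccnd3, read 5.74 and 6.09 at 12 h, against 7.18 and 7.17 without stimulus, and was 2.39-fold lower (log2 -1.26, adjusted p = 0.000406). Ccnd2, the D cyclin that B cell receptor signalling is known to induce, read 10.69 and 9.77 at 12 h and 9.53 and 10.03 without stimulus, with groups that overlap (adjusted p = 0.444). Rbl2, the retinoblastoma relative p130, was 2.23-fold lower (log2 -1.16, adjusted p = 0.000821).

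Of 32 G1/S and replication genes, 13 were higher and 2 lower. The higher count was 7 without unstimulated replicate 1, 6 without 12 h replicate 1, 8 without 12 h replicate 2, 3 and 8 without IkL/L replicates 1 and 2 at all times, and 6 with housekeeping scaling. Uhrf1, which maintains DNA methylation at replication, read 6.00 and 5.93 at 12 h, against 4.14 and 4.0 without stimulus, and was at least 3.38-fold higher (log2 1.90, adjusted p = 0.000138). Gins2, of the replicative helicase, read 5.6 and 5.40 at 12 h, against 4.38 and 3.99 without stimulus, and was at least 2.31-fold higher (log2 1.32, adjusted p = 0.000817). Cdt1, which licenses origins before S phase, went the other way, at 9.61 and 9.45 at 12 h, against 10.63 and 10.80 without stimulus, and was 2.27-fold lower (log2 -1.19, adjusted p = 0.000411). The promoters of Uhrf1 and Cdt1 are shown as members that moved in opposite directions, with the E2F site TTTCGCGC or TTTGGCGC in capitals (either strand; RefSeq, GRCm38.p6). They lie at chr17:56304063-56304362, plus strand (the first listed of 2 for Uhrf1) and chr8:122567765-122568064, plus strand.
Uhrf1: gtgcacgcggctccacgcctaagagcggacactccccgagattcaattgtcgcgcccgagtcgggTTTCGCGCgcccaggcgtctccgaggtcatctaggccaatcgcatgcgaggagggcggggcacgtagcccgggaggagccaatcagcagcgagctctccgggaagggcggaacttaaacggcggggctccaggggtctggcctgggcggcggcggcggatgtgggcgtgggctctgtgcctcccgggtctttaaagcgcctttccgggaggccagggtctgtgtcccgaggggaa
Cdt1: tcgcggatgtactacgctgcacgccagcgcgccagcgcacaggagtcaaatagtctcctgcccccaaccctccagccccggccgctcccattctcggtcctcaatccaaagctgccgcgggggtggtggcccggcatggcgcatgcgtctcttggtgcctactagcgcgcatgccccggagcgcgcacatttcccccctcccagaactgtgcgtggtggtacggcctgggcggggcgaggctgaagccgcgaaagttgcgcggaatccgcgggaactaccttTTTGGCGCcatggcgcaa
One of these E2F sites stood in 11 of the 26 listed promoters of G1/S genes, or 42.3%, against 1.45% of all.

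In the list of 22 mitotic genes, 1 was higher and 1 lower, where 9.72% of all genes were higher and 7.87% lower. In both groups 14 of the 22 lay under the floor, so these could show no measured change. Cenpa, the centromeric histone H3, read 6.50 and 5.78 at 12 h, against 8.24 and 8.42 without stimulus, and was 4.56-fold lower (log2 -2.19, adjusted p = 7.13e-05). Mki67, a marker of cycling cells, read 4.58 and 3.97 at 12 h and 4.67 and 4.38 without stimulus, with groups that overlap, and Cdk1 lay near the floor, at 3.93 and 4.37 at 12 h and 3.65 and 3.85 without stimulus. Myc, the driver of growth genes, read 9.76 and 9.92 at 12 h and 8.82 and 9.66 without stimulus, a difference of 0.60 that did not pass (adjusted p = 0.153) and passed with the replicate block (adjusted p = 0.027). Within the Myc and Mxd network of 12 genes, 0 were higher and 4 lower; 3 were higher with the replicate block, 2 were higher and 2 lower without unstimulated replicate 2, and 2 were lower without IkL/L replicate 2 at all times. Mxi1, a Max partner that opposes Myc, read 5.17 and 4.85 at 12 h, against 7.16 and 7.50 without stimulus, and was 5.0-fold lower (log2 -2.32, adjusted p = 6.59e-05).

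Components of the B cell receptor and its nearest signalling proteins were mostly lower. Of 25 genes 15 were lower and 1 higher (2 with the replicate block), with a median of -0.63; 9 were lower without unstimulated replicate 2, and 9 and 7 without IkL/L replicates 1 and 2 at all times. Syk, the kinase that binds the phosphorylated receptor, read 7.67 and 7.51 at 12 h, against 10.05 and 10.55 without stimulus, and was 6.54-fold lower (log2 -2.71, adjusted p = 0.000168). Cd79a and Cd79b, the Ig-alpha and Ig-beta chains, were 2.57-fold lower (log2 -1.36, adjusted p = 0.0041) and 2.93-fold lower (log2 -1.55, adjusted p = 0.00207). The adaptor Dapp1, which binds PI3-kinase products, was at least 3.52-fold lower (log2 -1.83, adjusted p = 0.000291), and the PI3-kinase subunit Pik3cg was at least 2.27-fold lower (log2 -1.75, adjusted p = 0.000174). Of 28 inhibitory receptors and adaptors 10 were lower and 2 higher (4 with the replicate block). Inpp5d, the phosphatase SHIP1 that removes the product of PI3-kinase, read 8.76 and 8.41 at 12 h, against 10.45 and 10.75 without stimulus, and was 4.05-fold lower (log2 -2.02, adjusted p = 7.14e-05). Cblb, a ubiquitin ligase that dampens receptor signals, read 5.93 and 5.36 at 12 h, against 8.04 and 8.35 without stimulus, and was 5.87-fold lower (log2 -2.55, adjusted p = 9.31e-05), and Pag1, which recruits the inhibitory kinase Csk, was 3.66-fold lower (log2 -1.87, adjusted p = 0.000146). The phosphatase Inpp5d and the ligase Cblb were lower while the receptor Pdcd1, described above, was higher. A further phosphatase, Ptpn6, was also higher (log2 1.01, limma adjusted p = 0.00174), a call that did not hold in every setting. Fcgr2b, the inhibitory Fc receptor, read 8.80 and 9.0 at 12 h, against 9.78 and 9.62 without stimulus, and was 1.75-fold lower (log2 -0.80, adjusted p = 0.00201), a call lost without IkL/L replicate 1 at all times (adjusted p = 0.104). Cd22, an inhibitory lectin of B cells, read 9.74 and 8.81 at 12 h and 9.96 and 9.86 without stimulus and did not pass (adjusted p = 0.129), though it did with the replicate block (adjusted p = 0.0365).

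Downstream of the receptor, exchange factors of Ras were lower, and a few feedback genes passed in each direction. The shares over all genes were 9.72% higher and 7.87% lower. Ras, Rap and GTPase regulators had 8 of 22 genes lower (5 without IkL/L replicate 2 at all times) and 2 higher. Rasgrp1, Rasgrp2 and Rasgrp3, exchange factors that activate Ras or Rap on diacylglycerol and calcium signals, were 3.7-fold lower, at least 3.63-fold lower and 2.91-fold lower, with adjusted p of 0.000444, 1.94e-05 and 0.000331. Rgs10, which speeds the switching off of G proteins, read 6.63 and 6.57 at 12 h, against 4.03 and 4.59 without stimulus, and was at least 4.61-fold higher (log2 2.29, adjusted p = 0.000476). Among 13 MAPK feedback genes 2 were higher (4 with the replicate block) and 2 lower, small counts near the shares over all genes. Spry2, an inhibitor of Ras signalling, read 6.14 and 6.13 at 12 h, against 3.75 and 3.48 without stimulus, and was at least 3.81-fold higher (log2 2.52, adjusted p = 1.93e-05). Dusp1, a phosphatase of MAP kinases, read 4.6 and 4.86 at 12 h, against 7.44 and 8.31 without stimulus, and was 8.85-fold lower (log2 -3.15, adjusted p = 0.000137). NF-kB subunits, inhibitors and targets had 7 of 18 lower (4 without 12 h replicate 2, 3 without IkL/L replicate 2 at all times) and 1 higher (2 with the replicate block). Bcl3, a nuclear IkB protein, was 3.67-fold lower (log2 -1.88, adjusted p = 0.000724), and the ubiquitin ligase Birc3 was 3.18-fold lower (log2 -1.67, adjusted p = 0.000762). Of 19 genes of calcium, calcineurin and NFAT, 4 were higher and 5 lower, and 2 higher genes were left without 12 h replicate 2 or with housekeeping scaling, 1 and 2 without IkL/L replicates 1 and 2 at all times, with 3 and 2 lower ones. Rcan1, an inhibitor of calcineurin and a target of NFAT, read 6.88 and 7.13 at 12 h, against 5.14 and 5.62 without stimulus, and was 3.09-fold higher (log2 1.63, adjusted p = 0.000766), while the calcium channel Itpr3 was 6.28-fold lower (log2 -2.65, adjusted p = 4.29e-05). Nfatc1 read 8.59 and 8.57 at 12 h and 8.48 and 8.70 without stimulus on its brightest probe set, with groups that overlap, but was 1.13 log2 units higher (adjusted p = 0.000638) on the mean of all its probe sets.

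The immediate-early factors differed among themselves. Egr2 and Egr3 were higher, at 4.14-fold higher (log2 2.05, adjusted p = 6.15e-05) and 3.77-fold higher (log2 1.91, adjusted p = 0.000598), while Egr1 read 9.82 and 9.64 at 12 h and 8.58 and 10.02 without stimulus, with groups that overlap (adjusted p = 0.563). Fos read 5.19 and 5.79 at 12 h, against 7.68 and 8.80 without stimulus, and was 6.71-fold lower (log2 -2.75, adjusted p = 0.00198). Its relative Fosl2 read 5.62 and 6.29 at 12 h, against 7.51 and 8.35 without stimulus, and was 3.93-fold lower (log2 -1.97, adjusted p = 0.00222). Egr2 and Egr3 thus moved in the direction opposite to Fos and Fosl2. Of 22 AP-1, Egr and Nr4a genes 3 were higher and 5 lower. The higher count was 5 with the replicate block and without unstimulated replicate 2; the lower count was 10 without unstimulated replicate 1, 3 without 12 h replicate 1 or 2, and 2 without IkL/L replicate 2 at all times.

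Of the activation markers at the surface, Tfrc was higher at 12 h and Icosl and Cd40 were lower, while Cd69 and Cd86 did not pass. Cd69, an early activation antigen, read 7.14 and 7.89 at 12 h and 8.19 and 8.23 without stimulus (adjusted p = 0.218, and 0.0144 with the replicate block), and Cd86, a costimulatory ligand, read 8.29 and 8.78 at 12 h and 8.49 and 8.89 without stimulus, with groups that overlap. Icosl, the ligand of ICOS on T cells, read 3.78 and 3.48 at 12 h, against 6.49 and 6.72 without stimulus, and was at least 5.27-fold lower (log2 -2.97, adjusted p = 2.85e-05). Tfrc, the transferrin receptor of growing cells, read 10.45 and 10.57 at 12 h, against 9.04 and 9.5 without stimulus, and was 2.37-fold higher (log2 1.25, adjusted p = 0.000537), and Cd40, the receptor for T cell help, was 2.77-fold lower (log2 -1.47, adjusted p = 0.000285). The list of 21 had 3 genes higher (6 with the replicate block) and 4 lower (2 without unstimulated replicate 2).

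Receptors for cytokines and for homing cues were lower more often than higher. Cytokine and growth factor receptors had 10 of 25 genes lower (4 without IkL/L replicate 2 at all times) and 4 higher, Nrp1 and Axl included. Il10ra read 4.82 and 4.48 at 12 h, against 7.42 and 7.21 without stimulus, and was 6.37-fold lower (log2 -2.67, adjusted p = 7.54e-06), and Il4ra, the IL-4 receptor chain, was 2.78-fold lower (log2 -1.47, adjusted p = 0.00308). Of 14 homing and chemokine receptors 8 were lower and 1 higher, with a median of -1.09. Cxcr4, the receptor for CXCL12, read 5.89 and 5.83 at 12 h, against 9.06 and 8.93 without stimulus, and was 8.78-fold lower (log2 -3.13, adjusted p = 7.64e-06). Cxcr5, which leads B cells into follicles, read 8.58 and 8.38 at 12 h, against 10.16 and 10.37 without stimulus, and was 3.44-fold lower (log2 -1.78, adjusted p = 3.37e-05). Ccr7, which leads them to the T cell zone border, read 9.30 and 9.45 at 12 h, against 10.98 and 11.01 without stimulus, and was 3.07-fold lower (log2 -1.62, adjusted p = 0.000702). On both 12 h arrays all 3 guidance receptors were below both unstimulated arrays, as was S1pr4, at 6.22-fold lower (log2 -2.64, adjusted p = 7.24e-05). The cannabinoid receptor Cnr2 was at least 10.8-fold lower (log2 -3.55, adjusted p = 8.40e-06). Integrins and adhesion molecules had 6 of 18 lower and 3 higher (1 without 12 h replicate 2, or without IkL/L replicate 2 at all times). Itga4 and its partner chain Itgb7, which bind the gut addressin, were 3.08-fold lower (log2 -1.62, adjusted p = 0.00089) and at least 4.9-fold lower (log2 -2.41, adjusted p = 2.40e-05). Among 20 secreted chemokines and cytokines 3 were higher (5 with the replicate block) and 4 lower. Ccl22, a chemokine that attracts T cells through CCR4, read 6.54 and 6.83 at 12 h, against 3.69 and 3.77 without stimulus, and was at least 5.56-fold higher (log2 2.95, adjusted p = 4.59e-06). Il16 and Il12a were lower, at 5.89-fold lower (log2 -2.56, adjusted p = 4.59e-06) and at least 5.84-fold lower (log2 -2.63, adjusted p = 3.39e-05).

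MHC class II genes were lower or did not pass, and the lower ones included regulators of peptide loading. H2-Ob, a chain of H2-O, which restrains peptide loading, read 7.70 and 6.54 at 12 h, against 10.86 and 10.50 without stimulus, and was 11.8-fold lower (log2 -3.56, adjusted p = 6.69e-05). H2-Oa, its other chain, read 7.58 and 6.65 at 12 h, against 10.25 and 10.14 without stimulus, and was 8.47-fold lower (log2 -3.08, adjusted p = 4.01e-05). H2-DMa, of the loading catalyst H2-M, was 7.85-fold lower (log2 -2.97, adjusted p = 4.33e-05). Marchf1, a ubiquitin ligase that removes MHC class II from the surface, was at least 4.77-fold lower (log2 -2.70, adjusted p = 5.04e-06). The list had 9 of 15 genes lower and 0 higher, with a median of -1.32. The coactivator Ciita read 3.93 and 3.57 at 12 h and 5.15 and 5.67 without stimulus and did not pass (adjusted p = 0.086), though it did with the replicate block (adjusted p = 0.00272).

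Factors of B cell identity were lower or did not pass, where 7.87% of all genes were lower and 9.72% higher. Ebf1, which specifies the lineage, read 7.23 and 7.33 at 12 h, against 8.89 and 9.13 without stimulus, and was 3.32-fold lower (log2 -1.73, adjusted p = 1.84e-05). Pou2af1, the coactivator OBF-1, read 9.51 and 9.31 at 12 h, against 11.16 and 10.70 without stimulus, and was 2.87-fold lower (log2 -1.52, adjusted p = 0.000281). Pax5 read 4.94 and 4.47 at 12 h, against 5.97 and 6.39 without stimulus, and was 2.79-fold lower (log2 -1.48, adjusted p = 0.0132). Dropping unstimulated replicate 2 left Pax5 at an adjusted p of 0.0864, dropping 12 h replicate 2 at 0.108, and dropping IkL/L replicate 1 or 2 at all times at 0.0613 and 0.329, so that its call ended in each of these. Of 18 identity factors 10 were lower and 0 higher, a count of 6 without 12 h replicate 2 and 6 and 5 without IkL/L replicates 1 and 2 at all times. The 10 B cell markers summed to 13.34 and 12.69 at 12 h and 14.20 and 14.02 without stimulus, and 8 of them were lower (5 without unstimulated replicate 2, 4 without 12 h replicate 2 or IkL/L replicate 2 at all times). Among those, Fcer2a, which encodes CD23, one of the markers of the sort, read 6.89 and 6.37 at 12 h, against 9.39 and 9.76 without stimulus, and was 7.7-fold lower (log2 -2.95, adjusted p = 2.58e-05). Ms4a1, which encodes CD20, read 10.84 and 10.39 at 12 h and 10.99 and 10.77 without stimulus, with groups that overlap. Of 13 marginal zone and follicular markers 4 were lower (1 without unstimulated replicate 2, 12 h replicate 2 or IkL/L replicate 2 at all times) and 2 higher, and the sphingosine receptor S1pr3 was at least 3.31-fold higher (log2 2.24, adjusted p = 0.000195). Of 14 germinal centre and plasma cell regulators, 2 were higher and 2 lower (5 lower with the replicate block), small counts near the shares of all genes. In both groups 4 of the 14 lay under the floor. Bcl6, the germinal centre repressor, read 5.67 and 5.22 at 12 h, against 7.96 and 7.53 without stimulus. It was 4.93-fold lower (log2 -2.30, adjusted p = 8.66e-05). Irf4 read 10.54 and 10.32 at 12 h and 9.95 and 10.72 without stimulus, with groups that overlap.

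Sensors, survival genes and chromatin genes moved in both directions, where 9.72% of all genes were higher and 7.87% lower. Toll-like receptors and nucleic acid sensors had 3 of 16 lower and 1 higher (3 with the replicate block), with the DNA-sensing adaptor Sting1 at 6.14-fold lower (log2 -2.62, adjusted p = 0.000483) and Tlr1 at 3.7-fold lower (log2 -1.89, adjusted p = 0.00154). Of 14 BCL2 family genes 3 were higher and 4 lower; no higher gene was left without IkL/L replicate 1 at all times, and 2 lower genes were left without unstimulated replicate 1, 12 h replicate 2, or IkL/L replicate 1 or 2 at all times. Mcl1, a survival protein, read 10.34 and 9.85 at 12 h, against 11.50 and 11.39 without stimulus, and was 2.55-fold lower (log2 -1.35, adjusted p = 0.0003). Bmf, a death-promoting member, read 5.88 and 5.72 at 12 h, against 8.53 and 8.60 without stimulus, and was 6.81-fold lower (log2 -2.77, adjusted p = 4.10e-05). Its smallest log2 difference over 15 other settings was -0.83. Bcl2l1 was higher (log2 1.20, limma adjusted p = 0.0031), a call that did not hold in every setting. In Ikaros zinc finger and NuRD genes, 4 of 18 were higher (1 without IkL/L replicate 1 or 2 at all times, 2 with housekeeping scaling) and 1 lower (3 with the replicate block), with the NuRD subunit Mbd3 at 2.58-fold higher (log2 1.37, adjusted p = 0.000956). Ikzf3, which encodes Aiolos, read 7.70 and 7.41 at 12 h and 7.36 and 7.70 without stimulus, with groups that overlap (adjusted p = 0.962). Of 17 Polycomb genes 2 were higher and 4 lower, the lower count being 2 without unstimulated replicate 2 or 12 h replicate 1 and 1 without IkL/L replicate 2 at all times. Ezh2, the methyltransferase of lysine 27 of histone H3, read 9.30 and 9.65 at 12 h, against 7.33 and 7.98 without stimulus, and was 3.55-fold higher (log2 1.83, adjusted p = 0.000238), Bmi1 was 2.74-fold higher (log2 1.45, adjusted p = 0.000163), and Cbx7 was 2.94-fold lower (log2 -1.55, adjusted p = 0.000789). Among 14 Notch pathway genes 4 were lower (2 without unstimulated replicate 2, 12 h replicate 1 or 2, or IkL/L replicate 1 or 2 at all times) and 1 higher, and Hes1, a target of Notch, was at least 2.09-fold lower (log2 -1.53, adjusted p = 0.00552).

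Between 3 h and 12 h of stimulation the IkL/L cells moved on: respiration, sterol synthesis and parts of the receptor complex were higher at 12 h, and early-response factors, homing receptors and ribosome biogenesis were lower. This comparison has anti-IgM in both groups; it shares its 12 h arrays with the one above, so the 2 are given side by side and not set against each other. By limma 1659 genes were higher and 1168 lower at 12 h than at 3 h, or 9.12% and 6.42% of all tested. The higher share of the called genes was 58.7%, against 45.3% after median centring and 25.8% with housekeeping scaling, so that the balance between the directions flips with the scaling. Without single arrays 1021 to 1248 genes were higher and 590 to 812 lower, the lowest counts without 3 h replicate 1 for the higher and 3 h replicate 2 for the lower genes; with IkL/L replicates 1 and 2 left out at all times, 758 and 627 were higher and 510 and 431 lower.

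Some genes were highest at 12 h. Nrp1 read 2.82 and 3.99 without stimulus, 4.45 and 5.23 at 3 h and 8.0 and 8.47 at 12 h. Acot7 read 3.55 and 4.18 without stimulus, 4.41 and 4.98 at 3 h and 7.38 and 8.18 at 12 h. Atp5g1 read 7.69 and 7.88 without stimulus, 8.07 and 8.27 at 3 h and 9.31 and 9.70 at 12 h. For these, 12 h exceeded 3 h by 3.39, 3.09 and 1.33 log2 units (adjusted p = 0.000985, 0.00014 and 0.000352). The respiratory list had 12 of 22 genes higher at 12 h than at 3 h and 0 lower (3 to 7 without single arrays or replicates, 7 after median centring and 5 with housekeeping scaling), and at 3 h 1 was higher and 2 lower than without stimulus, where 20.4% of all genes had changed by 3 h, 9.82% higher and 10.6% lower. Cholesterol synthesis had 16 of 17 higher at 12 h than at 3 h, a count of 10 without 12 h replicate 2 and of 9 and 8 without IkL/L replicates 1 and 2 at all times.

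Other genes were high at 3 h and lower again at 12 h. Klf4, a factor of growth arrest, read 5.08 and 5.57 without stimulus, 6.71 and 6.51 at 3 h and 2.75 and 2.71 at 12 h. Nr4a2, an orphan nuclear receptor of the immediate-early set, read 5.32 and 6.49 without stimulus, 8.29 and 9.04 at 3 h and 4.34 and 4.55 at 12 h. Cd274, which encodes PD-L1, read 5.57 and 6.94 without stimulus, 8.03 and 8.44 at 3 h and 3.85 and 4.90 at 12 h. All 3 stood above the unstimulated arrays at 3 h and below them at 12 h, with 12 h minus 3 h at -3.88, -4.22 and -3.86 (adjusted p = 8.18e-06, 6.47e-05 and 0.000404). Against the floor, the 12 h level was at least 5.29-fold lower than the 3 h level for Klf4 and at least 12.8-fold lower for Cd274. Fosl2 and Dusp1 dropped by 3.63 and 3.93 on the log2 scale between 3 h and 12 h, and Gng4, a G protein subunit, by 4.62. In the AP-1, Egr and Nr4a list 10 of 22 were lower at 12 h than at 3 h and 2 higher, and 12 had been higher at 3 h than without stimulus. Myc read 8.82 and 9.66 without stimulus, 11.31 and 11.49 at 3 h and 9.76 and 9.92 at 12 h. Cd86 read 8.49 and 8.89 without stimulus, 9.91 and 10.41 at 3 h and 8.29 and 8.78 at 12 h. Irf4, a dose-sensitive factor of plasma cell fate, read 9.95 and 10.72 without stimulus, 11.97 and 12.12 at 3 h and 10.54 and 10.32 at 12 h. These 3 were highest at 3 h, and 12 h minus 3 h was -1.56, -1.62 and -1.61 (adjusted p = 0.00234, 0.00274 and 0.000706). Ribosome biogenesis had 29 of 30 genes higher at 3 h than without stimulus and 12 lower at 12 h than at 3 h; the last count was 1 to 7 without single arrays or replicates (lowest without 3 h replicate 2) and 23 with housekeeping scaling.

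A further set was lowest at 3 h and partly back at 12 h. Cd79b read 12.46 and 12.17 without stimulus, 9.21 and 8.54 at 3 h and 11.05 and 10.48 at 12 h. Itga4 read 8.98 and 9.11 without stimulus, 5.62 and 5.67 at 3 h and 7.78 and 7.05 at 12 h. Il16, a cytokine released from a precursor, read 9.90 and 9.80 without stimulus, 6.19 and 6.03 at 3 h and 7.24 and 7.33 at 12 h. The 12 h arrays stood between the other groups for all 3, with 12 h minus 3 h at 1.89, 1.77 and 1.18 (adjusted p = 0.000825, 0.000681 and 0.000316). Fcgr2b likewise read 9.78 and 9.62 without stimulus, 7.23 and 7.26 at 3 h and 8.80 and 9.0 at 12 h. Of the 25 receptor signalling genes 13 were higher at 12 h than at 3 h (8 without IkL/L replicate 1 at all times and with housekeeping scaling) and 5 lower (3 without 3 h replicate 1 or 12 h replicate 2, 2 without IkL/L replicate 2 at all times). Cat, which encodes catalase, read 7.29 and 6.24 without stimulus, 3.21 and 3.32 at 3 h and 6.71 and 7.27 at 12 h. Hadh, an enzyme of fatty acid oxidation, read 8.58 and 8.56 without stimulus, 5.98 and 5.99 at 3 h and 9.69 and 9.44 at 12 h. The 12 h arrays of Cat overlapped the unstimulated ones, and those of Hadh lay above them.

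Cxcr4, Cxcr5, Ebf1 and Fcer2a were lower at 12 h than at 3 h. Cxcr4 read 9.06 and 8.93 without stimulus, 8.81 and 8.54 at 3 h and 5.89 and 5.83 at 12 h. Cxcr5 read 10.16 and 10.37 without stimulus, 10.27 and 10.31 at 3 h and 8.58 and 8.38 at 12 h. Ebf1 read 8.89 and 9.13 without stimulus, 9.31 and 9.35 at 3 h and 7.23 and 7.33 at 12 h. For these, 12 h minus 3 h was -2.82, -1.80 and -2.05 (adjusted p = 2.63e-05, 5.63e-05 and 1.55e-05), while 3 h minus unstimulated was -0.32, 0.02 and 0.32, none of which passed. Fcer2a fell by 2.52 on the log2 scale between 3 h and 12 h. Of the homing receptors 7 of 14 were lower at 12 h than at 3 h and 1 higher, and of MHC class II genes 7 of 15 and 1; without IkL/L replicate 2 at all times 4 and 3 were lower. Ebf1 and Fcer2a do not stand for their lists: of 18 identity factors 5 were higher and 5 lower at 12 h than at 3 h (8 higher with the replicate block, 3 lower with 12 h replicate 2 dropped, 3 and 3 with IkL/L replicate 2 dropped at all times), and of 10 B cell markers 4 were higher and 4 lower. The count of higher markers was 1 without 3 h replicate 2, and 2 when 12 h replicate 1 or IkL/L replicate 1 at all times was dropped, with the compared arrays alone, after median centring and with housekeeping scaling.

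**Figure D4:**
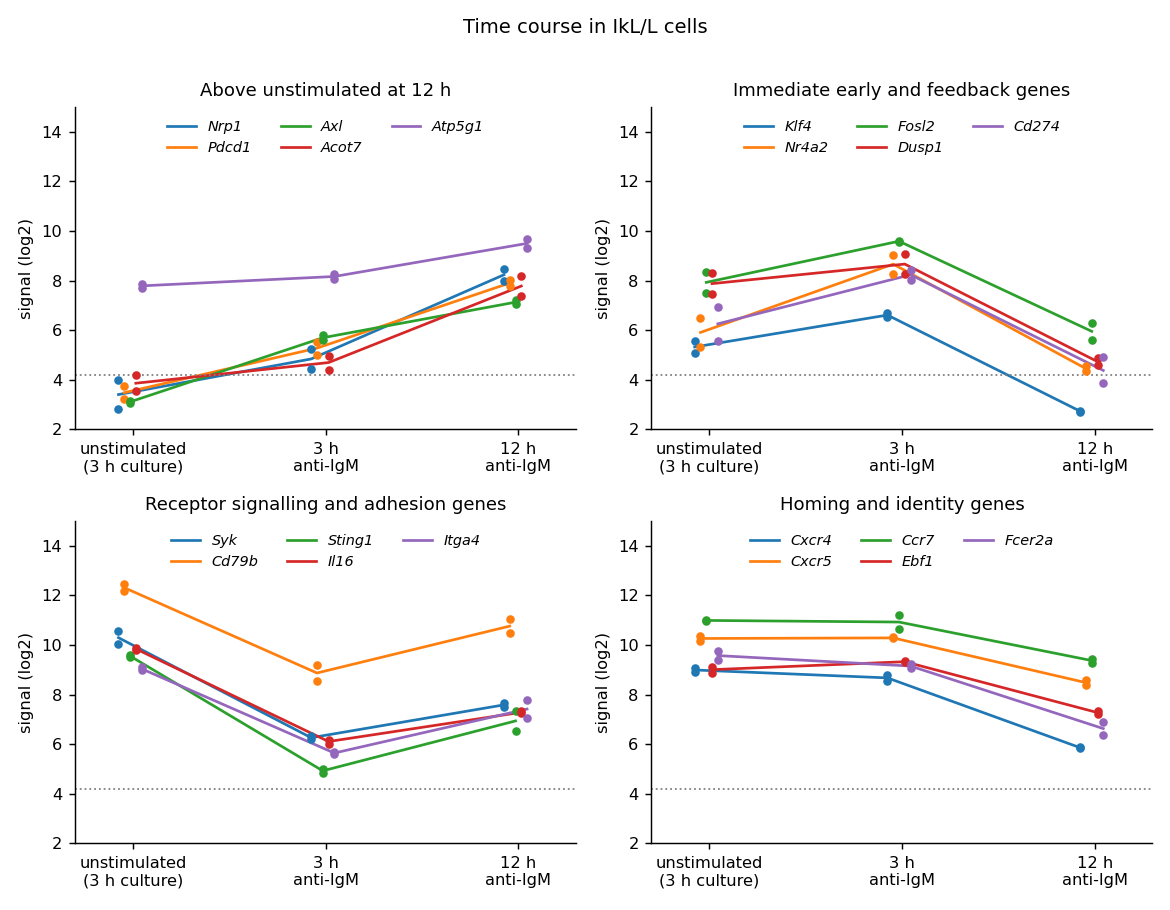
Log2 signal in IkL/L cells without stimulus, at 3 h and at 12 h of anti-IgM, in 4 panels of 5 genes each; points are arrays and lines join group means. The panels show genes highest at 12 h, genes highest at 3 h, genes lowest at 3 h and genes that fell between 3 h and 12 h.

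The response of IkL/L cells at 12 h was set against that of WT cells with the interaction term of the same fit. In WT cells 18.8% of all genes changed over the 12 h, 10.1% higher and 8.66% lower. Of 18193 genes 4 differed in their response, or 0.022%, all with a more positive value in IkL/L, while 1126 had an unadjusted p under 0.05. In 3 of the 4 the 12 h level stood out in IkL/L cells, and in the other the unstimulated level stood out in WT cells. Ccl22 read 6.54 and 6.83 in IkL/L cells at 12 h, against 3.69 and 3.77 in unstimulated IkL/L cells, and 3.90 and 3.65 in WT cells at 12 h, against 3.51 and 3.62 in unstimulated WT cells. Of these groups the IkL/L cells at 12 h alone lay above the floor, and the responses differed by 2.74 (SE 0.22, limma adjusted p = 0.00326). Axl read 7.22 and 7.04 in IkL/L cells at 12 h, against 3.14 and 3.07 in unstimulated IkL/L cells, and 4.56 and 4.14 in WT cells at 12 h, against 2.81 and 2.89 in unstimulated WT cells. It was also higher at 12 h than without stimulus in WT cells (adjusted p = 0.000125), and the responses differed by 2.52 (SE 0.22, adjusted p = 0.00429); with the mean of all its probe sets the difference was 1.23. Tceal8, of a family named after a transcription elongation factor, read 5.27 and 5.24 in IkL/L cells at 12 h, against 3.58 and 3.83 in unstimulated IkL/L cells, and 2.96 and 3.09 in WT cells at 12 h, against 2.99 and 2.88 in unstimulated WT cells, all of these WT values under the floor. Its responses differed by 1.46 (SE 0.17, adjusted p = 0.0488). Rnf125, an E3 ubiquitin ligase, read 3.09 and 2.84 in IkL/L cells at 12 h, against 3.14 and 3.83 in unstimulated IkL/L cells, all under the floor, and 3.21 and 2.99 in WT cells at 12 h, against 5.94 and 5.88 in unstimulated WT cells. Its difference of 2.29 (SE 0.28, adjusted p = 0.0497) thus lies in the WT cells, whose level fell to under the floor (adjusted p = 1.63e-05), and not in a change within IkL/L cells.

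None of the 4 calls held with WT replicate 1, the one apart in Xist, left out in all conditions: Ccl22 then differed by 2.92 (adjusted p = 0.0597), Axl by 2.78 (adjusted p = 0.0521), Rnf125 by 2.37 and Tceal8 by 1.34 (adjusted p = 0.322 for both). Without WT replicate 2 in all conditions the differences were 2.55 for Ccl22, 2.26 for Axl, 2.21 for Rnf125 and 1.59 for Tceal8, with adjusted p of 0.295, 0.295, 0.86 and 0.544. Dropping IkL/L replicate 2 in this way also gave 0 genes, and dropping IkL/L replicate 1 gave 1. With single arrays left out the count lay between 1, without unstimulated WT replicate 2, and 7, without unstimulated or 12 h IkL/L replicate 1; Axl lost its call without unstimulated WT replicate 2 (adjusted p = 0.0523). With the replicate number as a block within each genotype 26 genes differed. In none of the 41 gene lists, the cell type markers left aside, did a gene other than Ccl22 and Axl pass this test; a difference that misses the threshold with 2 arrays a group does not show that the genotypes respond alike.

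**Figure D5:**
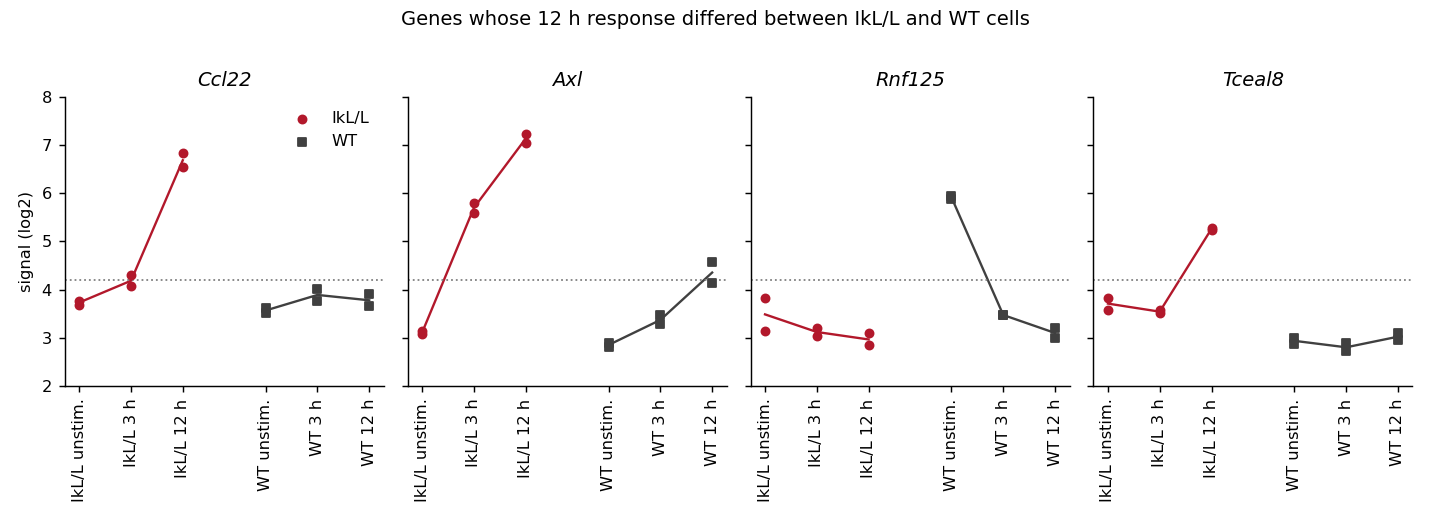
Log2 signal of Ccl22, Axl, Rnf125 and Tceal8 in IkL/L cells (left in each panel) and WT cells (right) without stimulus, at 3 h and at 12 h; points are arrays and lines join means, and the dotted line is the floor of 4.21. Ccl22 lies above the floor in IkL/L cells at 12 h, at 6.54 and 6.83, against 3.90 and 3.65 in WT cells at 12 h, and Rnf125 above it in unstimulated WT cells.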

How the data were processed

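Spleen follicular B cells of IkL/L and WT mice were measured on 12 Affymetrix 3' arrays, 2 in each of 6 groups, which were taken from the sample titles. The authors deposited log2 values after robust multi-array averaging of all probe sets, per the file headers and the labels. Gene symbols came from the platform's annotation, and of 45037 probe sets 9160 had none listed. For each of 18193 genes with a symbol of its own the brightest probe set, by its mean over the 12 arrays, was kept. A linear model with 1 mean for each of the 6 groups was fitted with limma 3.58.1 in R 4.3.3 (lmFit and eBayes, 6 residual and 3.95 prior degrees of freedom), and p-values were adjusted by Benjamini-Hochberg over all genes and called at 0.05. The same code was tested on simulated data. The floor of 4.21 was the highest array median plus 1, and folds against a group under it are lower bounds. Arrays give no counts, so the number of arrays limits the precision. Genes named were the 12 largest fitted rises and falls whose groups do not overlap, the leading 3 and up to 4 most changed genes of each list, the 6 largest calls in each direction of the other comparisons, and 10 always named. The members and lists were chosen with earlier results of these data known. The main fit did not pair arrays by replicate number, and pairing entered only as an alternative. Over the 6065 brightest genes, deviations of same-numbered arrays correlated at 0.354 to 0.490 within IkL/L and at 0.546 to 0.619 within WT. Between genotypes they correlated at 0.026 to 0.310. With the replicate block within genotype 4336 genes changed at 12 h against unstimulated, against 3201 in the main fit. The alternatives were the replicate block within or across genotypes, the mean of all probe sets, removal of the dimmest genes, array weights, an intensity trend in the variance, median or housekeeping scaling, a fit of the compared arrays alone, and leaving out arrays or replicates. Promoters were read from a RefSeq table of build GRCm38.p6, which held 14452 of the 18193 genes. Figures were drawn with matplotlib 3.10.9.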

Additional observations from a re-analysis of the deposited data

Results flagged for a closer look

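The 12 h response differed between IkL/L and WT cells in 4 genes by limma's interaction test, 0.022% of those tested. The IkL/L minus WT difference was 2.74 for Ccl22 (SE 0.22, adjusted p = 0.00326), 2.52 for Axl (SE 0.22, adjusted p = 0.00429), 2.29 for Rnf125 (SE 0.28, adjusted p = 0.0497) and 1.46 for Tceal8 (SE 0.17, adjusted p = 0.0488). On both arrays the IkL/L response was the more positive in each of the 4. All 4 lost the call when WT replicate 1, the one apart in Xist, was left out in all conditions, with differences then of 2.92, 2.78, 2.37 and 1.34, and also when WT replicate 2 was, with 2.55, 2.26, 2.21 and 1.59, in the same order of genes.

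Of the 9160 probe sets with no gene symbol listed, 659 were called between IkL/L cells at 12 h and unstimulated IkL/L cells, 145 higher and 514 lower, or 7.19%, against 14.1% of the 34945 probe sets with a single symbol. These probe sets entered no list and no count of genes.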

How the results depend on the processing

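Of the 206 named genes called at 12 h against unstimulated, 134 held their call and direction under each of 15 other settings; 72 lost the call in at least 1, 0 of those called reversed, and 22 of the 68 not called passed in at least 1. Of the genes not called, Nfatc1 reversed to 1.13 with the mean of all probe sets, and the cause was not tested. Sizes could change where the call held. The smallest log2 difference over the 15 settings was -0.83 for Bmf, -0.50 for Rasgrp1, -0.55 for Pag1, -1.04 for Il10ra and -0.63 for Itga4. The main count of 3201 changed genes lay between 1905 and 2606 without single arrays, and was 1709 and 1381 without IkL/L replicates 1 and 2 at all times; fewer arrays enter those fits. Higher genes numbered 991 to 1595 without single arrays, 844 and 797 without a replicate, and 979 with housekeeping scaling, against 1769; lower genes numbered 914 to 1337, and 865 and 584, against 1432. At 12 h against 3 h, 2827 changed genes became 1629 to 1939 without single arrays, and 1268 and 1058 without a replicate. The higher ones were 1021 to 1248, 758 and 627 in these fits and 804 with housekeeping scaling, against 1659, and the lower ones 590 to 812, 510 and 431, and 2310 with that scaling, against 1168. The difference from WT, 4 genes, became 26 with the replicate block within genotype, 19 with a block shared by both, 13 with the mean of all probe sets, 7 with an intensity trend, 2 with only the arrays compared and 2 with housekeeping scaling; it was 1 to 7 without single arrays, 1 and 0 without IkL/L replicates 1 and 2, and 0 without WT replicate 1 or 2, 2 settings added after seeing the data. Apart from this count and the calls given above, the replicate block moved no count of all genes by over 1.5 times (4336 and 3975 genes at 12 h against unstimulated and against 3 h). The array's background limits what low genes can show: 73 of the higher and 63 of the lower genes had all 4 arrays under the floor.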
